A study of Mus musculus with 9 samples.

Results

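Cytosolic ribosomal protein genes encode the proteins of the ribosome that translates nuclear-encoded mRNAs. They were taken as the protein-coding genes whose symbols begin with Rpl or Rps and a digit, together with Rplp0, Rplp1, Rplp2 and Rpsa, without the Rps6k kinases and pseudogenes, at a mean of at least 5 counts per library. Of 55401 mouse genes in the count table, 86 had such a symbol and 82 reached that count. They comprise 77 canonical ribosomal protein genes, the 4 paralogs Rpl22l1, Rpl7l1, Rpl36al and Rps27l, and Rps19bp1. The last encodes a nucleolar protein that binds Rps19 and is no ribosomal protein. It was kept because the rule names symbols. The genes lie on 19 chromosomes, with 14 on chromosome 7.

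The samples were spontaneous mammary tumors of female C57BL/6 MUC1.Tg MMTV-PyMT mice, a strain in which an MMTV promoter expresses the polyoma virus middle T oncogene (PyMT) in mammary epithelium. All animals carried the oncogene and the human MUC1 transgene. The 4 tumors called WT were Hspa1a/Hspa1b+/+ (122, 132, 124 and 124 days of age), and the 5 called KO were Hspa1a/Hspa1b-/- (122, 123, 120, 125 and 120 days). The study asked which tumor processes depend on HSP72, the stress-inducible chaperone that Hspa1a and Hspa1b encode. Tumors had been dissociated with collagenase and trypsin before RNA extraction, and ribosomal RNA was depleted before the stranded libraries were made. The labels do not say whether any tumors came from the same mouse, so the spread behind each p-value is that among these samples, which may be partly technical.

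A ribosome is built from a small subunit, which holds the mRNA and decodes it, and a large subunit, which forms peptide bonds and passes the new chain out through a tunnel. The proteins are made in matched amounts, and most of their mRNAs begin with a C followed by a run of pyrimidines, the terminal oligopyrimidine (TOP) motif, through which LARP1 and mTORC1 control their translation. In tumors the genes are known as part of the growth program downstream of mTORC1 and MYC. Excess free ribosomal proteins such as Rpl5 and Rpl11 bind Mdm2 and stabilize p53.

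The letters around RefSeq's annotated start sites were searched for pyrimidine runs. RefSeq promoters (GRCm38.p6) were matched for 62 of the 82 genes. A run of at least 7 C or T within 15 bases of the annotated start, on the gene's strand, stood in 33 of the 62 (53.2%) and in 21.3% of all 27025 genes with a promoter in that table. RefSeq's start lay within 15 bases of the start of the GENCODE reference mRNA in 25 of the 62 genes, so these windows need not hold the start used in the tumors. The windows below run from 10 bases before the start to 20 bases from it on, 5′ to 3′, with runs of at least 7 pyrimidines in capitals. They are shown for the 3 genes with the smallest unadjusted p below, for Rps6, for a gene whose mean was higher in KO tumors, and for a paralog and a small-subunit gene used later.
Rpl39 (chrX:37085203-37085232, minus strand): gctccgcctctagcgaCTTCTTCTaatcgc
Rps23 (chr13:90923112-90923141, plus strand): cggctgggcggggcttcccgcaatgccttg
Rps2 (chr17:24720053-24720082, plus strand): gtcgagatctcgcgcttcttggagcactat
Rps6 (chr4:86857348-86857377, minus strand): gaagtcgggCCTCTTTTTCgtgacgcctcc
Rps15a (chr7:118116128-118116157, minus strand): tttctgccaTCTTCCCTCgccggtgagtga
Rpl22l1 (chr3:28805498-28805527, plus strand): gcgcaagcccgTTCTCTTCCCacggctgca
Rps27 (chr3:90213629-90213658, minus strand): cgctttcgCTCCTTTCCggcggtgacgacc
Rps6, Rps15a and Rps27 carry the run across or next to the annotated start, Rpl39 and Rpl22l1 carry it downstream, and the windows of Rps23 and Rps2 hold no run of that length. The RefSeq start lies 164 bases downstream of the start of the GENCODE reference mRNA in Rps23, 180 in Rpl39, 72 in Rpl22l1 and 45 in Rps6, and in Rps15a it lies upstream of it. In Rps2 it lies 0 bases from the start of the GENCODE reference mRNA. Both lie inside the GENCODE gene span given below, downstream of that span's first base. A window with no run says only that these letters are not in it.

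Other short motifs were searched on both strands of the 300 bases from 250 before to 50 after the start. CCGGAA, the core bound by ETS factors, stood in 54.8% of the 62 genes and in 16.7% of all genes with a promoter. CTTTCC stood in 53.2% against 29.3%, and GGGCGG, the GC box, in 64.5% against 38.2%. AAGATGGC, the core of the YY1 motif, was found in 6 genes (9.68% against 3.19%). TATAAA was found in 7 (11.3% against 15.7%). A match is a description of the letters and not of a bound site.

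Depth was 11500920 to 19136317 fragments per library. Gene counts came to 4410399 to 6221181, and 3 counts, the limit that a count of 0 allows, are 0.482 to 0.680 CPM. CPM values are counts divided by the library's scaled total. The 82 genes took 0.894% to 1.22% of the gene counts of a library, or 47007 to 69580 counts. The deleted genes followed the labels: Hspa1b had 1043 counts in all WT tumors together and 6 in all KO tumors, and Hspa1a had 139 and 23. Markers of the tumors' cell types mostly had lower values in KO tumors, and 0 were called by edgeR. All 11 mammary epithelium markers, 10 of 11 fibroblast markers, 10 of 10 endothelial markers and 11 of 11 macrophage markers tested had negative log2 fold changes in KO tumors. Their medians were -0.49, -0.68, -0.77 and -0.62. At an unadjusted p under 0.05 in edgeR, 4 epithelial, 6 fibroblast, 3 endothelial and 3 macrophage markers were lower and 0 higher. Of all genes tested, 4.59% were lower and 3.36% higher at that p. Without WT 1, the epithelial median was -0.33 and the endothelial -0.22, and without WT 1 and WT 4 the macrophage median was -0.28. None of the markers in these lists was at 0 in every library, and the summed levels ran from 4501 to 7868 CPM in WT and 4217 to 4779 in KO tumors for epithelium, and from 796 to 1087 and 339 to 675 for fibroblasts. They ran from 81.8 to 178 and 38.1 to 101 for endothelium, and from 608 to 1015 and 308 to 839 for macrophages. Of these 4 summed levels only that of the fibroblast markers did not overlap between groups. All 4 lymphocyte markers tested were negative, with a median of -0.15 that became 0.023 without KO 3. All 9 milk protein genes tested were negative, with a median of -1.88 and 8 at an unadjusted p under 0.05 (4.59% of all genes were lower). Their summed level was 17945, 4218, 5900 and 14423 CPM in WT 1 to 4 and 4650, 3203, 8527, 4228 and 4268 in KO 1 to 5, so WT 1 and WT 4 stood apart, and without both the median was 0.10. Fewer cells of a type and less RNA per cell cannot be told apart in such tissue, and the part of these shifts in the results on ribosomal protein genes was not tested.

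Most ribosomal protein genes had slightly lower mean levels (CPM) in KO tumors, and none was called after adjustment over all genes tested. Of the 80 genes that passed the filter on low counts, 66 had a negative and 14 a positive log2 fold change of KO over WT. That is 82.5% negative, against 50.0% of all 14665 genes tested. The median log2 fold change was -0.10, against 0.00 for all genes, and single values ran from -0.38 (Rpl39) to 0.21 (Rps15a). The genes share libraries and move together, so this count is a description with no test. Rpl24 and Rpl36al did not pass the filter.

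In the quasi-likelihood test of edgeR, adjusted by Benjamini-Hochberg over all 14665 genes, 0 of the 80 were called at an adjusted p under 0.05 (0.0886% of all genes were), and the smallest adjusted p was 0.616. At an unadjusted p under 0.05, 3 genes were lower (4.59% of all genes were), which is no larger a share than the background, and 0 were higher (3.36% of all genes). DESeq2 called 0 as well (0.464% of all genes) and had 7 lower genes at an unadjusted p under 0.05 (4.99%) and 0 higher (3.42%). Limma-voom with sample weights called 0 (0.13%) and had 8 lower (4.86%) and 0 higher (3.78%). Under DESeq2 and limma-voom the share of lower genes was thus larger than among all genes. The genes move together, so this is a description with no test. The 95% interval of the fold change lay within 1.5-fold in either direction for 77 of the 80 genes and within 2-fold for all 80. The 3 exceptions at 1.5-fold were Rpl39, Rps27l and Rps15a.

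**Figure D1:**
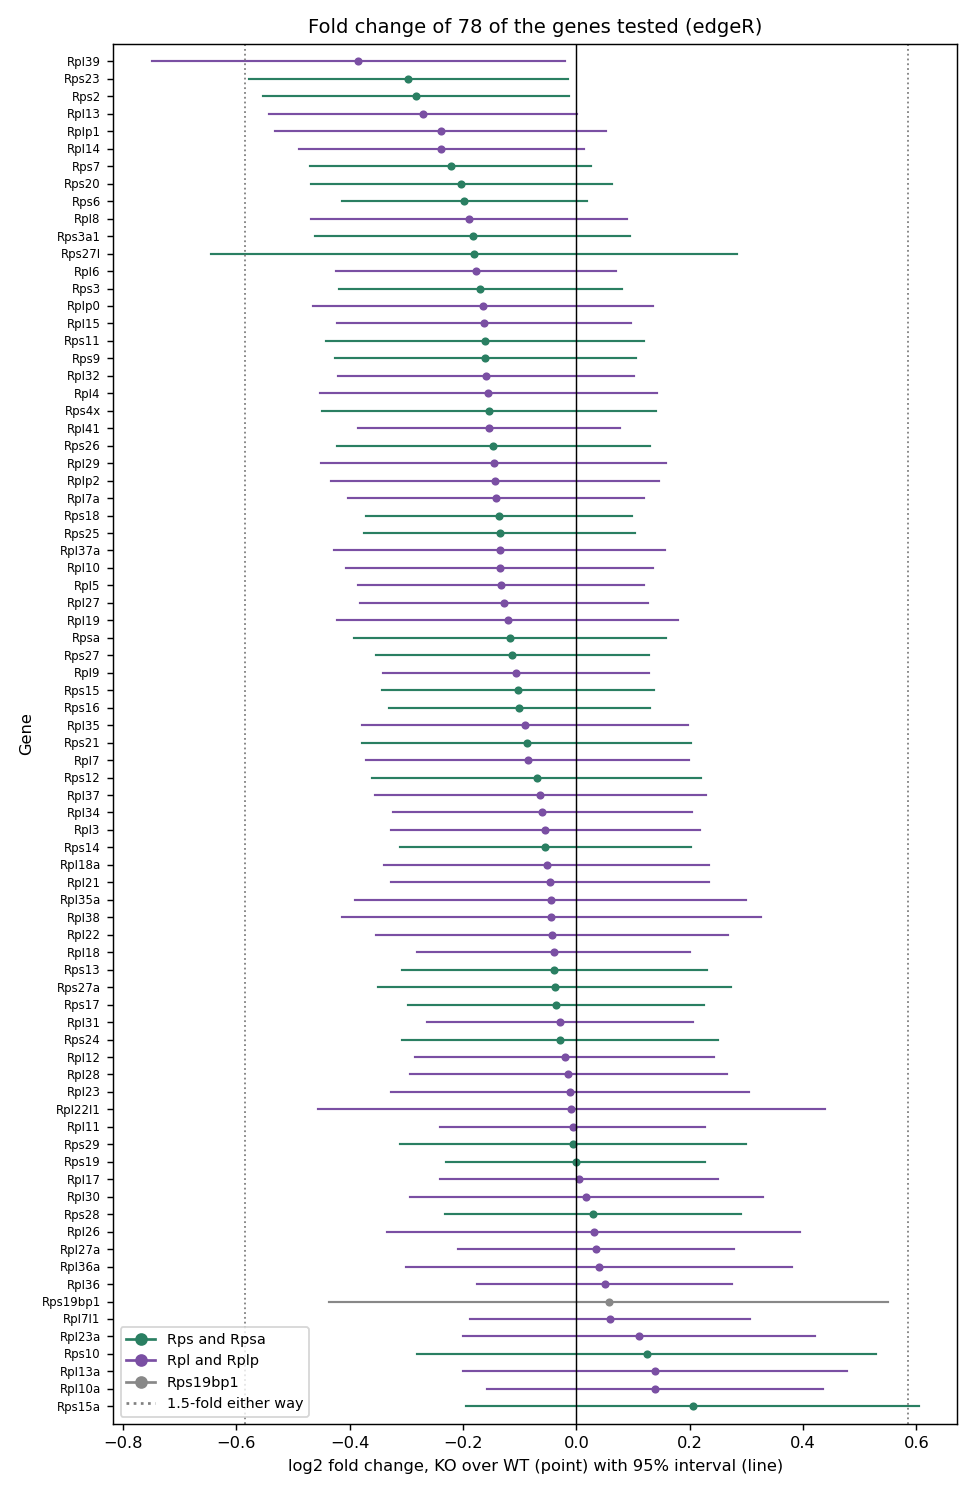
Each row is a gene, the point is its log2 fold change of KO (5 libraries) over WT (4 libraries) from edgeR, and the line is the 95% interval; dotted lines mark 1.5-fold. Points run from -0.38 for Rpl39 to 0.21 for Rps15a, and 64 of the 78 genes shown lie left of 0.

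The subunits had similar values, and the difference between them was not tested. Of the 32 small-subunit genes tested, 29 had a negative log2 fold change with a median of -0.12, and of 47 large-subunit genes 37 did with a median of -0.06. The ratio of the summed small-subunit to large-subunit counts was 0.754 ± 0.024 (SD, n = 4) in WT and 0.738 ± 0.0087 (SD, n = 5) in KO tumors. The groups overlapped in this ratio, since WT ran from 0.719 to 0.770 and KO from 0.730 to 0.752.

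The 3 genes with the smallest unadjusted p in edgeR were Rpl39, Rps23 and Rps2. Rpl39 (chrX:37082520-37085402, minus strand), a small protein of the exit tunnel, had 124, 105, 107 and 78.6 CPM in WT 1 to 4 and 78.6, 63.1, 102, 72.2 and 81.4 in KO 1 to 5. WT 4 lay within the KO range, so the groups overlapped. Its log2 fold change was -0.38 (SE 0.17, edgeR adjusted p = 0.616).

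Rps23 (chr13:90922958-90924950, plus strand), a protein of the decoding center, had 66.3, 87.8, 79.8 and 70.5 CPM in WT 1 to 4 and 59.1, 53.8, 58.8, 65.9 and 72.3 in KO 1 to 5. Only KO 5 lay above the lowest WT library. The log2 fold change was -0.30 (SE 0.13, edgeR adjusted p = 0.616).

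Rps2 (chr17:24718116-24721929, plus strand), at the mRNA entry channel, had 297, 314, 261 and 275 CPM in WT tumors and 252, 214, 201, 247 and 266 in KO tumors. Again KO 5 alone reached into the WT range. Its log2 fold change was -0.28 (SE 0.12, edgeR adjusted p = 0.616).

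Rps6 (chr4:86854660-86857412, minus strand), the ribosomal protein that S6 kinases phosphorylate downstream of mTORC1, was the only gene of the 80 in which every KO library lay below every WT library. It had 96.5, 102.8, 93.1 and 92.4 CPM in WT 1 to 4 and 81.7, 77.7, 89.6, 82.9 and 87.5 in KO 1 to 5. Such a separation in that direction was found in 1.26% of all genes, so 1 of 80 is near the background. The opposite separation was found in 0 of the 80 and in 1.44% of all genes. Its log2 fold change was -0.20 (SE 0.098, edgeR adjusted p = 0.646), and the exact permutation p for this gene alone was 0.0159, two-sided, where 0.00794 is the smallest these group sizes allow.

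Other genes among those with small p were Rpl13, Rpl14, Rps7, Rplp1, Rps20, Rpl6 and Rpl8, with log2 fold changes from -0.27 (Rpl13) to -0.18 (Rpl6) and adjusted p-values in edgeR from 0.630 to 0.708. Rpl8 lies next to the peptidyl transferase center. It had 239, 271, 225 and 215 CPM in WT tumors and 225, 186, 182, 209 and 240 in KO tumors, so the groups overlapped widely. Rplp1, with Rplp0 and Rplp2, forms the stalk that recruits elongation factors.

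Rplp0 had 423, 441, 424 and 386 CPM in WT tumors and 363, 307, 347, 379 and 471 in KO tumors. KO 5 was the highest of all libraries and KO 2 the lowest. The log2 fold changes were -0.16 for Rplp0, -0.24 for Rplp1 and -0.14 for Rplp2, and adjusted p in edgeR was 0.666 or more for each. Rpsa, the small-subunit protein also described as a laminin receptor precursor, had a log2 fold change of -0.12 with an adjusted p of 0.833 in edgeR.

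Of genes known for roles in the p53 response to ribosomal stress, or in anemia, Rpl5, Rpl11, Rps14 and Rps19 had log2 fold changes between -0.13 and 0.00. Rpl5 and Rpl11, which with 5S rRNA bind Mdm2, had log2 fold changes of -0.13 and -0.01. Rps14, affected in the anemia of chromosome 5q loss, had -0.05. Rps19, the gene most often affected in Diamond-Blackfan anemia, had 120, 146, 141 and 145 CPM in WT tumors and 143, 129, 135, 138 and 144 in KO tumors. It was the steadiest of the 80 genes, with a coefficient of variation of 6.15% over the 9 libraries and a log2 fold change of 0.00. Rps27a, which is made as a fusion with ubiquitin, had -0.04, and Rps3, which has a second role in DNA repair, had -0.17. Among these, the signs of Rpl11, Rps14, Rps19 and Rps27a turned under scaling to library totals alone.

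At the other end, Rps15a (chr7:118104372-118116188, minus strand) had the largest positive value. It had 79.8, 102, 128 and 90.6 CPM in WT tumors and 95.5, 96.1, 157, 110 and 118 in KO tumors, and KO 3 was the highest. Its log2 fold change was 0.21 (SE 0.18, edgeR adjusted p = 0.783), and was -0.03 when WT 1 and KO 3 were left out. Rpl10a, chosen with Rps15a after its value was seen, had 0.14.

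The position of 1 library bears on the whole set. KO 2 was the lowest of the 9 libraries for 57 of the 80 genes (71.25%), while it was the lowest for 10.5% of all genes tested. WT 2 was the highest for 29 genes (36.25%, against 12.6% of all genes) and KO 3 for 19 (23.75%, against 18.6%). Summed over the 82 genes, WT 1 to 4 had 10933, 12049, 11562 and 10824 CPM and KO 1 to 5 had 10498, 9063, 11093, 10537 and 11472. Thus KO 2 stood below all others, and KO 3 and KO 5 lay among the WT libraries. The means were 11342 ± 573 CPM (SD, n = 4) and 10533 ± 916 (SD, n = 5), a log2 ratio of -0.11 against a pooled SD of 0.11 between libraries of a group.

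Without KO 2, the median log2 fold change of the set was -0.05 and 48 of 80 values were negative, and 0 genes had an unadjusted p under 0.05. With library totals alone in place of TMM factors, 45 were negative and 35 positive, and the median was -0.03 beside 0.06 for all genes. Upper-quartile factors gave 59 negative and 21 positive values and a median of -0.07 beside 0.03 for all genes. KO 3 had the largest share of fragments outside annotated genes (50.4%) and the smallest unmapped share (10.99%). Its members' deviations followed the GC content of their mRNAs (Spearman -0.46 across the 80 genes, which share the library and are not independent), as did those of WT 3 (-0.33). In the other libraries this correlation was positive, from 0.057 in WT 1 to 0.26 in KO 2. The part of these library differences in the results was not tested.

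**Figure D2:**
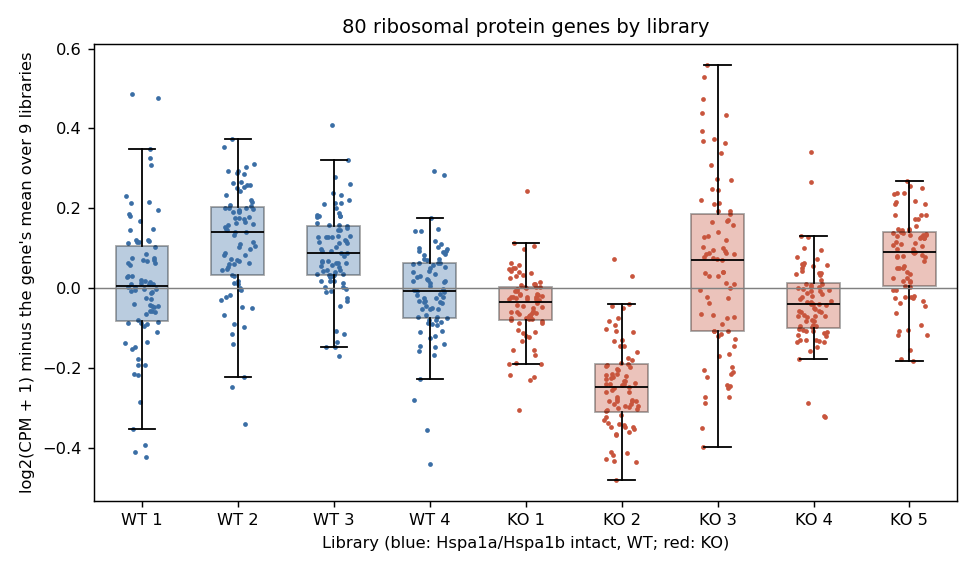
Each point is 1 of 80 genes in 1 library, as log2(CPM + 1) minus the gene's mean over 9 libraries; boxes span the quartiles with the median as a line, and whiskers reach up to 1.5 box lengths. KO 2 lies below the other libraries with a median of -0.25, and WT 2 has the highest median at 0.14.

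Apart from that shift, the set varied little. The median coefficient of variation over the 9 libraries was 11.7%, against 22.1% for all genes tested and 18.2% for the 10424 genes with a mean count of at least 50. No comparison was made with genes matched for their counts. Besides Rps19, the steadiest were Rpl36 (6.25%) and Rpl11 (6.84%), and 24 genes lay under 10%. The most variable was the paralog Rps27l (24.5%).

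Levels per length differed far more between the genes than between genotypes. CPM per kb of the reference mRNA had a median of 156 and ran from 1.86 (Rpl24) to 428 (Rps15). The highest among the tested genes were Rps15, Rps14 (380), Rpl32 (379) and Rps9 (366). The lowest tested were Rps10 (10.4), Rps19bp1 (10.6), Rpl13a (17.8) and Rps15a (21.1). The reference mRNA of Rps15a, at 5130 bases, was the longest of the set, against a median of 767.5, and a long model lowers the level per kb.

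The 4 ribosomal protein genes with the lowest counts were those whose exons most overlap another annotated gene. In Rpl24 71.5%, in Rpl36al 63.1%, in Rpl13a 59.3% and in Rps10 53.6% of the bases of the reference mRNA also lie in exons of another gene on the same strand. These 4 were the only ones with over 50% overlapped. They had means of 6.78, 7.0, 100.1 and 49.7 counts per library, and the next lowest ribosomal protein gene, Rpl22l1, had 124. Rps19bp1, which is no ribosomal protein and has no such overlap, had 47.7. The overlapping genes Gm28037, Gm45713 and RPS10-NUDT3 had 0 counts in all libraries, and Gm49383 had 4. Fragments that lie in 2 genes are set aside as ambiguous in STAR's gene counting, whose names the table carries, and the ambiguous share was 0.971% to 1.23% of fragments. Whether this lowered the 4 counts was not tested, and their levels are uncertain for this reason.

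Near-identical copies are the other source of uncertainty. A median of 56.1% of the 50-base words of a reference mRNA were also found in transcripts of other genes, and in 49 genes it was over 50%. For many of the set those other genes were mostly pseudogenes (14 of 15 for Rpl10), but not for Rpl7l1 (6 of 520) or Rps16 (6 of 89). Rps27 (98.6%) and Rpl35 (95.1%) shared the most, and Rps19bp1 shared 0. Rps27 had 353 CPM per kb. Across the 82 genes the Spearman correlation between this share and the level per kb was 0.05, and across the 80 tested genes that with the log2 fold change was 0.07. The genes share libraries, and the values are descriptions. The 1105 pseudogenes sharing a word with a ribosomal protein gene held counts equal to 2.55% to 3.37% of those of the set. Fragments mapped to several places (5.50% to 9.53% of fragments) are counted for no gene, so this share does not measure what the copies take. For the 33 genes with at most 50% of their words shared, the log2 ratio of the summed level was -0.11, as for all 82.

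**Figure D3:**
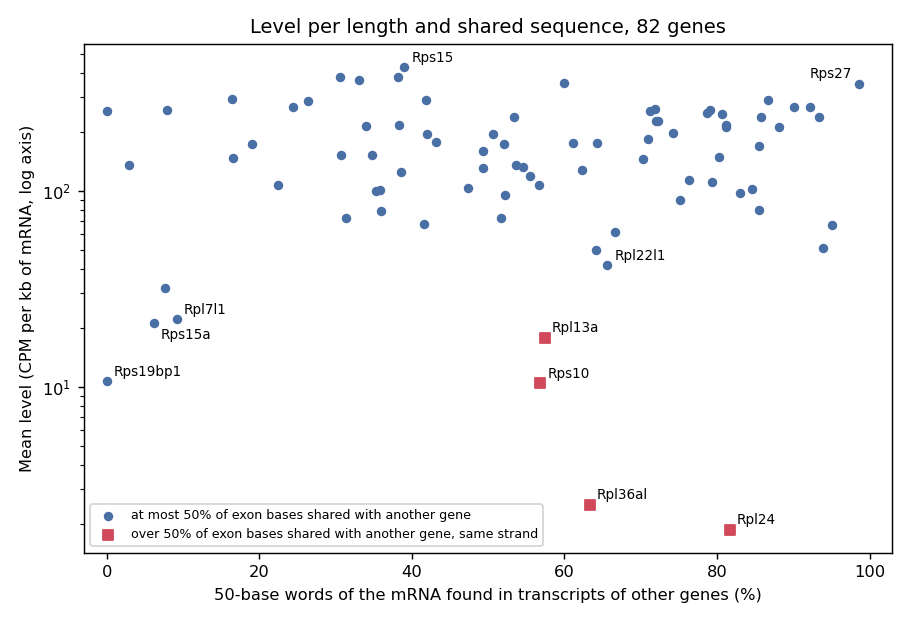
Each point is 1 of 82 genes, with the share of its 50-base mRNA words found in other genes on the x axis and its mean level (CPM per kb, log axis) on the y axis; red squares mark the 4 genes with over 50% of their exon bases shared with another gene on the same strand. The squares (Rpl24, Rpl36al, Rps10, Rpl13a) lie in the lower part of the plot, and Rps27 lies at 98.6% and 353 CPM per kb.

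Just inside the minimum mean of 5 counts were Rpl24 (61 counts over the 9 libraries) and Rpl36al (63). Just outside were Rps27rt (24) and Rpl3l (19), the striated-muscle paralog of Rpl3. The testis-enriched paralogs Rpl10l and Rpl39l had 0 counts in every library.

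The paralogs of the set were compared with their parent genes within each library, which removes the scaling between libraries. Rpl7l1 counts were 21.1%, 19.5%, 19.5% and 19.0% of those of Rpl7 in WT 1 to 4 and 21.8%, 24.5%, 21.8%, 20.7% and 20.9% in KO 1 to 5. WT 1 alone overlapped the KO range. The difference in log2 ratio was 0.15, with an exact two-sided permutation p of 0.0476, and 0.190 after Benjamini-Hochberg adjustment over the 4 pairs, so it does not pass.

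Rpl22l1, whose product can replace Rpl22, had 30.5%, 12.8%, 19.5% and 13.2% of the Rpl22 count in WT tumors and 14.98%, 16.9%, 22.2%, 16.3% and 21.4% in KO tumors. WT 1 was the highest and the groups overlapped fully, with a difference in log2 ratio of 0.02. Rps27l, a p53 target, had 56.9%, 36.4%, 52.4% and 32.9% of the Rps27 count in WT tumors and 41.0%, 38.7%, 48.6%, 35.9% and 48.1% in KO tumors, a difference of -0.05. Rpl36al had 1.58% to 6.73% of the Rpl36a count, from at most 14 counts per library, and a difference of -0.11. The exact permutation p of these 3 pairs was 0.817 or more before adjustment.

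**Figure D4:**
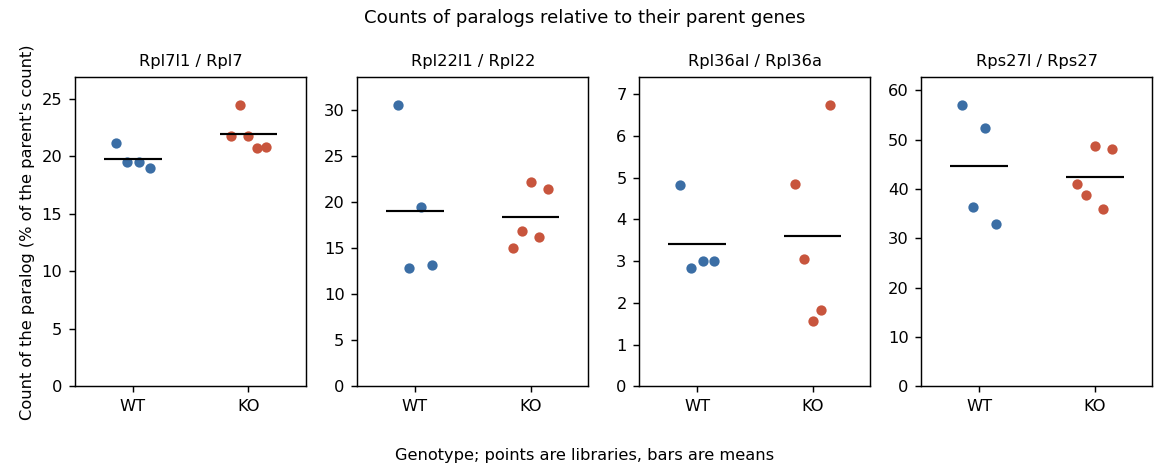
Each panel shows the count of a paralog as a percentage of its parent's count, by genotype; points are libraries (4 WT, 5 KO) and bars are means. The KO libraries of Rpl7l1 (20.7% to 24.5%) lie above 3 of the 4 WT libraries, and the other 3 pairs overlap.

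Ribosomal protein genes also host small nucleolar RNAs (snoRNAs), which guide the modification of ribosomal RNA and are cut from introns. Within 30 genes of the set lay 59 annotated snoRNAs, of which 29 had 0 counts in every library and 12 passed the count filter. Of the 59, 58 lay on the strand of the gene around them. Snora78 in Rps2 lay on the opposite strand, and it is among the 12 with a log2 fold change of -0.36. Of the 12, 4 had a negative and 8 a positive log2 fold change with a median of 0.14. By edgeR 0 were called (smallest adjusted p = 0.693), and 0 had an unadjusted p under 0.05. Snord15a in Rps3 had 20.7, 40.1, 42.7 and 80.3 CPM in WT tumors and 48.5, 50.2, 45.2, 67.2 and 42.9 in KO tumors. Its lowest and highest libraries were both WT. WT 1 was the lowest library for 11 of the 12 snoRNAs, and for 21.4% of all genes tested.

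The genes around the ribosome were taken from lists by role. Of ribosomal protein genes whose symbols the rule misses, Fau had a log2 fold change of -0.22 and Rack1 -0.10. Of 10 translation elongation factors 9 had negative values, with a median of -0.15 and 0 at an unadjusted p under 0.05. Eef2, which moves the ribosome along the mRNA, had 1323, 1638, 1254 and 1377 CPM in WT tumors and 1161, 1047, 931, 1203 and 1334 in KO tumors. KO 5 alone lay within the WT range, and the log2 fold change was -0.30 (SE 0.14, edgeR adjusted p = 0.639).

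Other mRNAs with a TOP motif, a list that includes some of the elongation factors, Fau and Rack1, had a median of -0.11 over 25 genes with 19 negative, and of -0.048 without KO 2. KO 2 was the lowest library for 15 of these 25 (60%). Among 108 ribosome biogenesis factors it was the lowest for 4 (3.70%). Of 37 initiation factors, 29 had negative values with a median of -0.06, or -0.096 when WT 1 and -0.012 when WT 2 was left out, and only Eif2b3 (0.35) had an unadjusted p under 0.05.

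Factors that build ribosomes had medians slightly above 0. RNA polymerase I subunits and rDNA transcription factors had a median of 0.07 over 18 genes, 14 of them positive. Their summed level ran from 1358 to 1431 CPM in WT and from 1479 to 1550 in KO tumors. By edgeR 0 were called, and only Ddx11, a helicase, had an unadjusted p under 0.05, with a log2 fold change of 0.40 and an adjusted p of 0.616. The 108 biogenesis factors also had a median of 0.07, with 68 positive and 40 negative. The polymerase I median was 0.00029 without WT 1 and 0.15 without WT 2, and that of the biogenesis factors was 0.036 without WT 1, 0.11 without WT 2 and -0.00071 without both WT 1 and WT 4.

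Within that list of 108, 3 genes were higher and 1 lower at an unadjusted p under 0.05 in edgeR, and 0 were called. Of all genes tested, 3.36% were higher and 4.59% lower at that p. Nol10, a nucleolar protein of small-subunit assembly, had 26.5, 28.0, 25.9 and 31.6 CPM in WT tumors and 42.0, 40.1, 39.7, 38.8 and 42.4 in KO tumors, with no overlap. Its log2 fold change was 0.54 (SE 0.11, edgeR adjusted p = 0.222), and it was called by DESeq2 (adjusted p = 0.00508, against up to 0.537 under the other alternatives). Imp3, a small-subunit processome protein, had 21.6, 21.5, 16.8 and 19.9 CPM in WT and 15.8, 11.9, 13.96, 11.6 and 14.5 in KO tumors, again with no overlap. Its log2 fold change was -0.56 (SE 0.15, edgeR adjusted p = 0.482). Exosc2 and Lsg1 of the same list also had every KO library above every WT library. Over all genes tested, 1.44% had that separation and 1.26% the opposite one.

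Regulators showed mixed values. The mTORC1, LARP1 and S6 kinase list had a median of 0.00 over 20 genes, whose sign turned between alternatives (-0.056 to 0.11), and only Eif4ebp2, a repressor of cap-dependent initiation, had an unadjusted p under 0.05. It had 245, 242, 220 and 241 CPM in WT tumors and 194, 179, 138, 179 and 217 in KO tumors, a log2 fold change of -0.38 (edgeR adjusted p = 0.616). Chaperones and targeting factors at the ribosome had a median of -0.01 over 29 genes, also turning sign (-0.095 to 0.054), with Srp14 of the signal recognition particle at -0.31 (edgeR adjusted p = 0.616).

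The p53 targets of ribosomal stress, with Rps27l (-0.18) and Trp53 itself in the list, had a median of 0.27 over 13 genes. Of these, 11 were positive, and the median was 0.16 without KO 5. The summed level of the list overlapped between groups, from 473 to 643 CPM in WT and 453 to 673 in KO tumors. Trp53 (0.29) and Cdkn1a (0.58) had an unadjusted p under 0.05 (3.36% of all genes were higher at that p), and the adjusted p in edgeR was 0.616 for both. The integrated stress response list had a median of -0.11 over 17 genes, which was -0.03 without WT 1 or WT 2 and 0.03 with age as a covariate, with only Asns (-0.53, edgeR adjusted p = 0.616) at an unadjusted p under 0.05. By edgeR 0 genes of these lists were called.

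**Figure D5:**
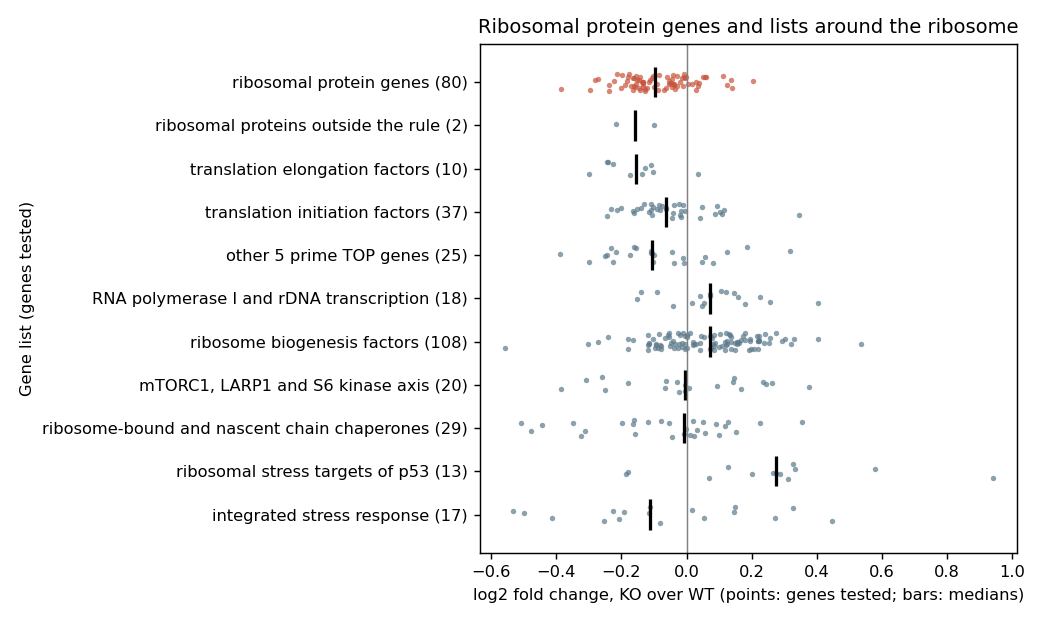
Each point is a gene's log2 fold change of KO over WT from edgeR, by gene list, and black bars are medians; genes can be in several lists. The ribosomal protein genes have a median of -0.10, and the biogenesis factors have a median of 0.07.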

How the data were processed

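The authors deposited raw counts per gene and library, under row names that STAR's gene counting uses. STAR 2.5.4a, FastQC 0.11.5, Trimmomatic 0.36 and mouse build GRCm38 are listed, per the submitters' processing notes. The labels name neither an annotation release nor a strand setting (not given in the sources used here). Fragments assigned to no gene (unmapped 10.99% to 27.1%, multimapped 5.50% to 9.53%, no feature 34.0% to 50.4%) were kept out of library sizes. Symbols and positions came from GENCODE's GRCm38 annotation for 55141 of 55401 genes.

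KO was tested against WT with edgeR 4.0.16 in R 4.3.3 (quasi-likelihood, TMM factors, filterByExpr, genotype as the only term) over 14665 genes, with two-sided Benjamini-Hochberg adjusted p under 0.05 as a call. Alternatives were DESeq2 1.42.0, voom with sample weights in limma 3.58.1, other factors and filters, covariates and left-out libraries; leaving out WT 1 with WT 4, or WT 1 with KO 3, was chosen after seeing the data. CPM are counts scaled to a library's tested gene counts times its TMM factor. A level per kb used 1 reference mRNA per gene, the shortest of the best supported, a choice made after seeing first lengths. Shared 50-base words were searched in annotated transcripts of other genes, not in the genome. The floor is 3 counts of a library, and floors cover counting error only. The fits were tested on simulated data.

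The members and gene lists were chosen with earlier results of these data known. Named are the 12 genes with the smallest p, the 4 highest and 4 lowest per kb, the stalk genes and Rpsa, paralog pairs, Rps6, Rps3, Rps19, Rpl5, Rpl11, Rps14 and Rps27a, those nearest the minimum count, those sharing the most and fewest words, and up to 3 genes per list by p. Results of some items under this rule are not reported here.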

Additional observations from a re-analysis of the deposited data

Results flagged for a closer look

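Of 142 groups of libraries examined for a library far from its group, 8 held one by Dixon's criterion at 95%, and chance alone would mark about 1 in 20 groups. Among ribosomal protein genes, Rps14 in WT 2 had 219 CPM beside 235.1 to 236.1 in the other WT libraries, and Rpl22 in KO 2 had 106 CPM beside 125 to 133 in the other KO libraries. Rpl7l1 in KO 3 had 68.5 CPM beside 54.6 to 58.1. The log2 ratio of Rpl36al to Rpl36a was -4.28 in WT 1 beside -5.01 to -4.93 in the other WT libraries, from few counts. Outside the set, Taf1a in WT 1 had 33.3 CPM beside 42.2 to 43.6, and Eif4ebp2 in WT 3 had 220.01 CPM beside 241 to 245. Srp14 in KO 5 had 29.6 CPM beside 22.7 to 24.0, and Trp53 in KO 4 had 73.5 CPM beside 55.9 to 60.9.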

How the results depend on the processing

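Under every alternative run, 0 ribosomal protein genes were called, with smallest adjusted p-values from 0.345 to 0.898 (0.616 as reported), and the median log2 fold change of the set stayed negative, from -0.17 to -0.03. Between 45 and 72 genes had negative values. The number of lower genes at an unadjusted p under 0.05, reported as 3, was 7 with DESeq2, 8 with limma-voom with sample weights, 1 with no count filter, 0 with upper-quartile factors, 0 with library totals alone, 5 without WT 1 and WT 4, 7 without WT 1 and KO 3, and 0 to 5 leaving out each library in turn (0 without WT 2, KO 1 or KO 2, 1 without WT 3 and 5 without KO 5). DESeq2 called 1 gene of the lists around the ribosome, Nol10, against 0. The cause of these changes was not tested.

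Signs of log2 fold changes near 0 turned in single settings. With library totals alone they were 0.0087 (Rps14), 0.0021 (Rpl3), 0.018 (Rpl22), 0.045 (Rpl22l1), 0.060 (Rps19), 0.055 (Rpl11) and 0.022 (Rps27a). Upper-quartile factors gave 0.015 (Rpl22l1), 0.025 (Rps19) and 0.020 (Rpl11). Age as a covariate gave -0.045 (Rpl13a), 0.057 (Rpl3), 0.079 (Rpl22), -0.0050 (Rpl36a) and 0.039 (Rps19). A mean count of at least 50 gave 0.0025 (Rps19). The length and GC offset gave 0.011 (Rpl22l1), 0.0053 (Rps19) and 0.026 (Rpl11). The replicate block together with that offset gave 0.0089 (Rpl11) and 0.0042 (Rps27a). Limma-voom with sample weights gave -0.018 (Rps15a), -0.013 (Rpl7l1) and -0.11 (Rpl36a). Without WT 1 and KO 3 the values were -0.027 (Rps15a), -0.036 (Rpl7l1), 0.010 (Rpl22l1) and -0.14 (Rpl36a). Without WT 1 and WT 4 they were -0.038 (Rpl7l1) and -0.055 (Rpl36a). Leaving out each library in turn gave ranges of -0.067 to 0.18 (Rps19bp1), -0.13 to 0.12 (Rpl22l1), -0.084 to 0.12 (Rpl36a), -0.15 to 0.017 (Rps27a), -0.11 to 0.026 (Rpl3), -0.16 to 0.038 (Rpl22), -0.061 to 0.026 (Rps19), -0.043 to 0.042 (Rpl11), -0.0010 to 0.19 (Rps10), -0.088 to 0.0060 (Rps14) and -0.0013 to 0.10 (Rpl7l1).

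For the paralog ratios, leaving out each library in turn gave differences of 0.11 to 0.18 (Rpl7l1 over Rpl7, exact permutation p from 0.0357 to 0.107), -0.13 to 0.28 (Rpl22l1 over Rpl22), -0.37 to 0.13 (Rpl36al over Rpl36a) and -0.18 to 0.084 (Rps27l over Rps27). Library numbers were not shown to pair the tumors. In the 4 pairs of equal number the correlation of deviations was -0.04 (WT 1 with KO 1), 0.47 (WT 2 with KO 2), 0.12 (WT 3 with KO 3) and 0.50 (WT 4 with KO 4). The highest correlation, 0.66, was between WT 1 and KO 3, whose numbers differ. WT 2 with KO 1 also had 0.27. With the replicate block the paralog difference was 0.16 for Rpl7l1 (exact permutation p = 0.125, the smallest that 4 pairs allow) and -0.036 for Rpl22l1.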
